A study of Mus musculus with 18 samples.

Results

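Mouse tracheal epithelial cells were sorted by surface NGFR, a nerve growth factor receptor that marks airway basal cells, and grown as organoids. NGFR- cells were taken as club cells and NGFR+ cells as basal cells. Each sorted population was split, and one aliquot received an adenovirus carrying GFP (Ad-GFP) and the other an adenovirus carrying Cre (Ad-Cre). The 4 libraries examined here, out of 18 in the series, are thus 1 Ad-GFP and 1 Ad-Cre culture from NGFR- cells and 1 of each from NGFR+ cells, all without transplantation. All donor mice carried a mutant human EGFR transgene behind a lox-stop-lox cassette and the ubiquitous CAG promoter at the Col1a1 locus, so Ad-Cre switched the transgene on and Ad-GFP left it off. The labels give no strain or age of the mice and do not say how many were pooled. Every culture also held neonatal lung mesenchymal support cells, whose RNA is part of each bulk library. Sorted cells were divided between the viruses and no source gives separate sorts, so the p-values do not measure the spread between separate sorts. With 1 culture per population and virus, they do not measure replicate cultures either. They rest on how far the population difference varied between the viruses, moderated by a spread shared across genes.

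Basal cells sit on the basement membrane of the trachea, keep the keratins Krt5 and Krt14 and the transcription factor p63 switched on, and act as stem cells of the epithelium. Club cells line the lumen, secrete secretoglobins such as Scgb1a1, and can turn into ciliated or mucous cells or revert to a basal state after injury. Sorting separates these types at the start, and a comparison of the resulting organoids asks which differences persist in culture and how far the populations have come together. Freshly sorted cells were not analysed here, so the size of the starting difference is not known from these data.

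The NGFR- libraries were shallower, with 27772660 and 34507648 expected counts, than the NGFR+ libraries, with 48522427 and 52148310. Mitochondrial transcripts made up 3.1% to 4.35% of counts in these 4 libraries, and no pair of libraries was alike within sampling noise (chi-square per degree of freedom from 17.02 to 30.98). The male-specific gene Ddx3y (93.9 to 113 CPM, read counts scaled to a common library size) and the X-inactivation RNA Xist (12 to 16.6 CPM) were both detected in every culture.

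None of the markers Ngfr, Krt5 and Scgb1a1 passed the test between the organoids. Ngfr itself was at 103 and 102 CPM in the NGFR- cultures (Ad-GFP, then Ad-Cre, here and below) and at 99.7 and 92.9 CPM in the NGFR+ cultures. The difference of 0.09 on the log2 scale (NGFR- minus NGFR+, as throughout; 95% interval -0.16 to 0.34) did not pass the edgeR quasi-likelihood test with Benjamini-Hochberg adjustment (adjusted p = 0.999). Transcript of the sorting antigen was thus present at nearly one level in cultures that had been chosen for having or lacking it.

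Krt5, a keratin of basal cells, was at 2523 and 2424 CPM in NGFR- organoids and at 2200 and 1942 CPM in NGFR+ organoids. The NGFR- cultures were the higher ones for this basal keratin, with a log2 difference of 0.26 (SE 0.13) that did not pass the test (adjusted p = 0.876, edgeR). Its partner Krt14 gave 1329 and 1278 CPM against 1225 and 1031 CPM. Trp63, the gene of p63, gave 193 and 182 CPM against 193 and 174 CPM, and the groups overlapped. In all, 1 of 18 basal cell genes passed the test, beside 0.290% of all genes tested. It was Dsc3, a desmosomal cadherin of stratified epithelia, and was higher in NGFR- organoids (11.5 and 14 against 6.12 and 5.33 CPM; log2 difference 1.16, SE 0.19, adjusted p = 0.0476, edgeR). The median of the basal list was 0.08, beside -0.01 over all genes tested, and the 95% interval lay within 2-fold for 17 of its 18 genes.

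Scgb1a1, the secretoglobin that defines club cells, was nearly absent from all 4 cultures, at 2.7 and 4.57 CPM in NGFR- organoids and 2.61 and 1.71 CPM in NGFR+ organoids. Both NGFR- cultures lay above both NGFR+ cultures, and 37.4% of all genes tested likewise had no overlap between populations. Scgb1a1 was 0.05 higher on the log2 scale with Ad-GFP and 1.39 higher with Ad-Cre. The log2 difference of 0.74 (SE 0.36, 95% interval -0.07 to 1.55) did not pass the test (adjusted p = 0.843, edgeR). Per transcript length, Scgb1a1 stood at 7.03 to 18.43 TPM (a level scaled for transcript length), against 1549 to 2063 TPM for Krt5 and 1649 to 2909 TPM for Scgb3a2, another secretoglobin of airway secretory cells. The bronchiolar BASC organoids of the same series (from bronchioalveolar stem cells; 1 library) had 6392 TPM of Scgb1a1. The club label was thus not borne out by Scgb1a1 at this stage, nor the basal label by a higher Krt5 or Ngfr, and the cultures are named below by their sort.

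**Figure D1:**
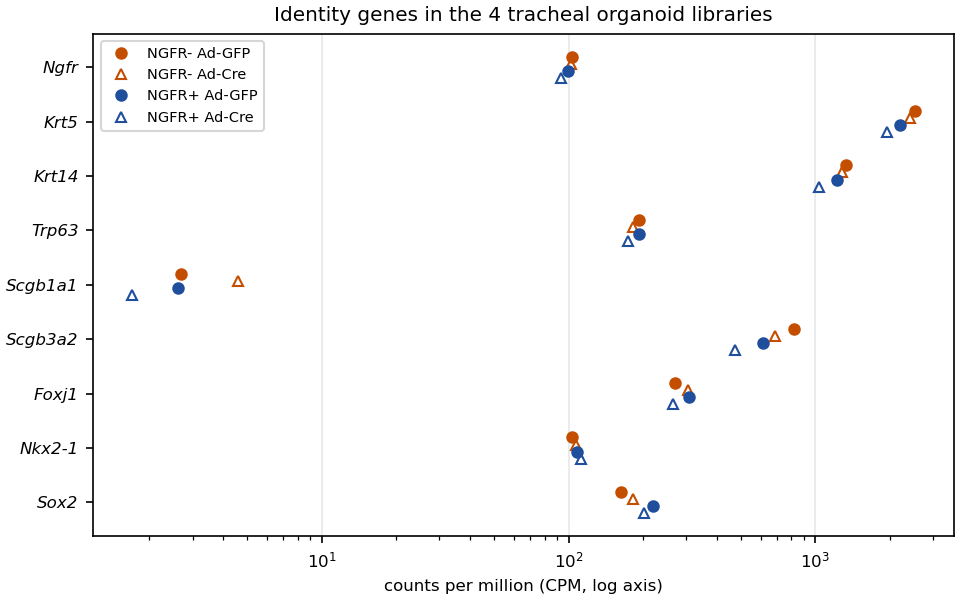
Identity genes (rows) in the 4 tracheal organoid libraries, in CPM on a log axis; orange is NGFR-, blue is NGFR+, filled circles are Ad-GFP and open triangles Ad-Cre, 1 library each. Ngfr lies between 92.9 and 103 CPM and Krt5 between 1942 and 2523 CPM in every library, while Scgb1a1 stays at or below 4.57 CPM in both populations.

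Across the transcriptome, 50 of 17234 genes tested differed between the populations at an adjusted p below 0.05 (0.290% of genes, edgeR with the virus as a block). Of these, 32 were higher in NGFR- organoids (0.186%) and 18 in NGFR+ organoids (0.104%), and 1097 genes had an unadjusted p below 0.05. The difference exceeded 2-fold for 25 of the 32 and 8 of the 18. The shares called over all genes are the background for each count of called genes in a list or family here. In 49 of the 50 called genes the cultures of one population lay wholly above those of the other, as they did in 37.4% of all genes tested. Genes named for the size of their difference were picked from called genes without overlap, so its absence in them is no further support. Among the 12036 genes with a mean log2 CPM of at least 2, the 95% interval of the difference lay within 2-fold in either direction for 11768, or 97.77%. These intervals are per gene and are not adjusted for their number.

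The count of called genes depended on the processing. It was 43 with limma-voom and 101 with DESeq2, reached 280 when all libraries were thinned to the depth of the shallowest and 371 without a filter on low counts, and was 0 (421 at an unadjusted p below 0.05) when edgeR took its spread from all 10 pretransplant organoid libraries. Of the 50 calls, all 50 passed without the NGFR- Ad-GFP culture and 47 without NGFR- Ad-Cre, but 26 without NGFR+ Ad-GFP and 30 without NGFR+ Ad-Cre. The 21 that passed each time included Klk13, Klk10, Spink5, Scgb3a1, Muc5ac, Muc5b, Gp2, Calml3, Cd74, Atp6v1b1, Pon1 and Aox3 among genes higher in NGFR- organoids, and Hoxc4, Tnfrsf11b, Mmp12 and Baiap2l1 among those higher in NGFR+ organoids. Each call given here for another gene was lost without at least 1 of the 4 cultures. The fits leaving out a culture had population as the single term. Without either NGFR- culture their spread came from the NGFR+ pair alone and more genes were called, so calls kept there say little about stability. In bulk RNA, more cells of a type and more RNA per cell cannot be told apart, and this holds for every difference below.

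A minority of the secretory and mucous genes tested were called, each higher in NGFR- organoids. Scgb3a1, a secretoglobin of secretory cells, was at 668 and 814 CPM in NGFR- organoids and at 246 and 243 CPM in NGFR+ organoids. The lowest NGFR- culture was above both NGFR+ cultures by more than the spread within either population, a 3.01-fold difference (log2 1.59, SE 0.13, adjusted p = 0.00159, edgeR). On the scale of all 10 organoid libraries, Scgb3a1 was at 1420 and 1360 CPM in mixed BASC organoids and at 1.65 and 7.04 CPM in AT2 (alveolar type 2 cell) organoids, and at 232 to 792 CPM in the tracheal ones, which lay between.

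Muc5b, the gel-forming mucin of resting airways, was at 133 and 123 CPM in NGFR- organoids and 31.6 and 46.8 CPM in NGFR+ organoids (log2 difference 1.73, SE 0.16). Its neighbour Muc5ac, the mucin of goblet cells, was at 35.2 and 48.3 CPM against 11 and 16 CPM (1.63, SE 0.12). Both mucins passed the test with no overlap between populations (adjusted p = 0.00299 and 0.00159, edgeR). On chromosome 7 of GRCm38, Muc5ac spans positions 141788972 to 141819231 and Muc5b starts 19.84 kb further on. Gp2, a membrane glycoprotein that binds bacteria on M cells, was at 15.3 and 30 CPM against 5 and 3.56 CPM (log2 difference 2.35, SE 0.30, adjusted p = 0.0153, edgeR). These were the called genes among the 17 tested of the goblet list, all 3 higher in NGFR- organoids. The list's median was 0.20, and -0.22 without the NGFR- Ad-Cre culture. Its summed level was lower in NGFR- organoids with either virus, at 10688 and 13097 CPM against 11432 and 14193 CPM. Of 10 mucin genes tested, a family looked up after these values were seen, 5 differences were positive and 5 negative. Muc1, a membrane mucin, was at 553 and 487 against 684 and 676 CPM and did not pass (log2 difference -0.39, SE 0.12, adjusted p = 0.401, edgeR). The goblet regulator Spdef was at 4.3 and 4.57 CPM against 2.93 and 2.77 CPM and did not pass the test (adjusted p = 0.66, edgeR).

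Of 25 club and secretory genes tested, 5 passed, beside 0.290% of all genes tested, and all 5 were higher in NGFR- organoids. The median over the list was 0.32, with 19 positive and 6 negative differences. Its summed level was 26086 and 27335 CPM in NGFR- organoids against 25624 and 23648 CPM in NGFR+ organoids. Beside Scgb3a1 the called genes were Bpifa1, an antimicrobial protein of the airway lining (710 and 959 against 447 and 406 CPM), and Hp, haptoglobin (313 and 283 against 171 and 160 CPM). The others were Pon1, a paraoxonase (39.1 and 48.4 against 22 and 18 CPM), and Aox3, an aldehyde oxidase (65.2 and 52 against 30.6 and 28 CPM). In each of these genes both NGFR- cultures lay above both NGFR+ cultures, with log2 differences from 0.85 to 1.59. Scgb3a2 pointed the same way, at 816 and 688 against 611 and 474 CPM, without passing (log2 difference 0.48, SE 0.12, adjusted p = 0.233, edgeR). Cyp2f2, the club cell cytochrome, overlapped between populations at 3144 and 2758 against 3117 and 1930 CPM.

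**Figure D2:**
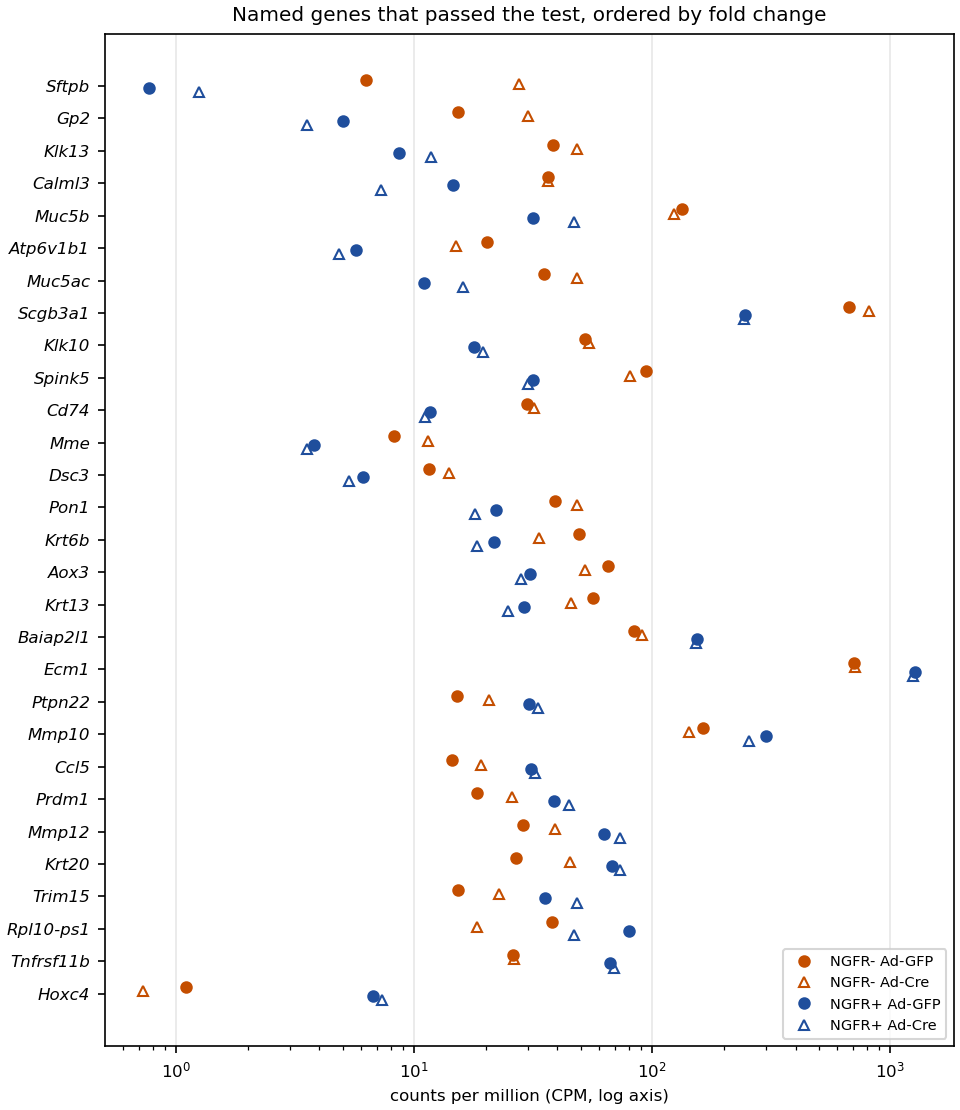
CPM, on a log axis, of the named genes that passed the test (rows, ordered from the highest to the lowest log2 difference, NGFR- minus NGFR+); orange is NGFR-, blue is NGFR+, filled circles Ad-GFP, open triangles Ad-Cre, 1 library each. From Sftpb to Krt13 both orange points lie right of both blue points, and from Baiap2l1 to Hoxc4 they lie left of them.

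Some genes of squamous and hillock cells, a stratified luminal cell state of the airway, were also called. Of 21 tested, 4 were called higher in NGFR- organoids and 1 in NGFR+ organoids, beside 0.290% of all genes called. The median was 0.18. The list's summed level overlapped between populations, at 4705 and 5407 CPM in NGFR- organoids against 5289 and 5069 CPM in NGFR+ organoids. Calml3, a calmodulin-like protein of squamous epithelia, was at 36.6 and 36.5 CPM in NGFR- organoids and at 14.6 and 7.23 CPM in NGFR+ organoids (log2 difference 1.82, SE 0.21, adjusted p = 0.0117, edgeR). Krt13, the hillock keratin, was at 56.5 and 45.6 CPM against 28.8 and 24.7 CPM (0.93, SE 0.12, adjusted p = 0.0153, edgeR).

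The keratins Krt6b (49.4 and 33.6 against 21.5 and 18.3 CPM) and Krt6a (369 and 413 against 238 and 190 CPM) were higher in NGFR- organoids as well. They lie 9.623 kb apart on chromosome 15 and are close copies of each other, so reads may have been split between them. The exception was Ecm1, an extracellular matrix protein, at 702 and 710 CPM in NGFR- organoids and 1273 and 1244 CPM in NGFR+ organoids (log2 difference -0.83, SE 0.12, adjusted p = 0.0351, edgeR). Ecm1 was the called gene with the highest level among those higher in NGFR+ organoids.

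Epithelial serine proteases and an inhibitor of them were higher in NGFR- organoids too. Klk13, a kallikrein protease, was at 38.2 and 48.1 CPM in NGFR- organoids and 8.63 and 11.8 CPM in NGFR+ organoids. Both NGFR- cultures lay far above both NGFR+ cultures, a 4.25-fold difference with the lowest adjusted p of the whole comparison (log2 2.09, SE 0.12, adjusted p = 0.000566, edgeR). Klk10 was at 52.4 and 54.5 CPM against 17.8 and 19.4 CPM (1.52, SE 0.12, adjusted p = 0.00159, edgeR). Spink5, which inhibits kallikreins of the skin, was at 94.6 and 80.5 CPM against 31.5 and 30 CPM (1.51, SE 0.12, adjusted p = 0.00159, edgeR). Both proteases and the inhibitor were higher in the NGFR- cultures.

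The kallikrein family was looked up after these values were seen. Of 6 kallikrein genes tested, 5 had a positive difference and 2 of them passed the test. Klk14 (1.38, SE 0.29), Klk8 (1.09, SE 0.24) and Klk11 (0.60, SE 0.15) had positive log2 differences that did not pass, and Klk9 was below 0.4 CPM in every culture with a difference of -0.25 (SE 0.75). Klk13 and Klk10 lie 53.5 kb apart on chromosome 7, at 43712567 to 43727534 and 43781035 to 43785410 (GRCm38). The annotation places 2310002F09Rik on the opposite strand over both genes. It was at or below 1.49 CPM, and whether reads were counted by strand is not given in the sources used here.

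Further genes higher in NGFR- organoids included Atp6v1b1, a proton pump subunit of acid-secreting cells, at 20.3 and 15 CPM against 5.71 and 4.85 CPM (log2 difference 1.73, SE 0.16, adjusted p = 0.00299, edgeR). Mme, the peptidase neprilysin, was at 8.21 and 11.5 CPM against 3.78 and 3.54 CPM (1.41, SE 0.22, adjusted p = 0.0435, edgeR). In both genes each NGFR- culture exceeded each NGFR+ culture, which the rule that named them required. The list of rare airway cells (ionocytes, tuft and neuroendocrine cells) had 0 of 15 genes called by edgeR, with a median of -0.38 and just 3 genes whose 95% interval lay within 2-fold. Of its genes 2 had a positive and 13 a negative difference. Trpm5, a channel of tuft cells, was at 3.3 and 3.35 against 5.42 and 5.33 CPM (log2 difference -0.69, SE 0.23, adjusted p = 0.469, edgeR). Gnat3, the taste G protein of tuft cells, was at 1.42 and 1.98 against 2.78 and 2.69 CPM (-0.69, SE 0.31, adjusted p = 0.799, edgeR). Dclk1, also used as a tuft cell marker, ran the other way. It was at 31.3 and 23.1 CPM against 10.8 and 13.9 CPM and missed the threshold (1.13, SE 0.19, adjusted p = 0.0523, edgeR). Its adjusted p ran from 1.37e-10 without a filter to 1.00 over 10 libraries, and it passed with DESeq2 (adjusted p = 0.000931) and with the stricter filter on low counts in edgeR (adjusted p = 0.0437).

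Surfactant genes were highest in 1 culture, NGFR- Ad-Cre. Sftpb, surfactant protein B, was at 6.29 CPM in the NGFR- Ad-GFP culture and 27.7 CPM in the NGFR- Ad-Cre culture, against 0.768 and 1.25 CPM in the NGFR+ cultures. Both NGFR- cultures were above both NGFR+ cultures, but the Ad-Cre culture was several times the higher (log2 difference 3.86, SE 0.32, adjusted p = 0.00159, edgeR). Without the NGFR- Ad-Cre culture the log2 difference was 2.63 (adjusted p = 0.000576, edgeR with population as the single term), and without the NGFR+ Ad-GFP culture the gene no longer passed (adjusted p = 0.0699, edgeR). It did not pass without the virus block (adjusted p = 0.0617) or over all 10 libraries (adjusted p = 1.00, edgeR) either.

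Sftpc, which marks alveolar type 2 cells, was at 27.9 CPM in the NGFR- Ad-Cre culture and at 1.88, 2.26 and 1.39 CPM in the other three. The populations overlapped and the difference did not pass the test (log2 2.26, SE 0.87, adjusted p = 0.646, edgeR). Without that culture the log2 difference was 0.05. The gene did pass after thinning (adjusted p = 0.000588), without a filter on low counts and without the NGFR- Ad-GFP culture (edgeR). The NGFR- Ad-Cre culture was also the highest for Sftpa1 (6.7 CPM against 0.768 to 1.28), Lamp3 (2.42 CPM against 0.154 to 0.533) and Lyz2 (202 CPM against 67 to 101). AT2 organoids held 27190 to 28280 CPM of Sftpc and 8444 to 10120 CPM of Sftpb, far above the NGFR- Ad-Cre culture. The part of alveolar cells in these values was not tested.

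Sftpb and Cd74 were the genes called among 12 of the alveolar type 2 list, and all 12 had a positive difference with a median of 0.52. Cd74, the invariant chain of MHC class II, did not follow the single culture: it was at 29.7 and 32 CPM in NGFR- organoids and 11.7 and 11.1 CPM in NGFR+ organoids, with both cultures of each population close together (log2 difference 1.44, SE 0.13, adjusted p = 0.00281, edgeR). It was the 1 gene called of 7 tested in the MHC class II list, whose summed level was 47.8 and 50.8 CPM against 23.7 and 22.2 CPM. H2-Aa, a class II chain, was at 2.31 and 3.03 CPM against 0.934 and 0.558 CPM and did not pass (adjusted p = 0.146, edgeR). Leukocyte markers, cells that also carry class II, summed to 72.7 to 79.6 CPM in the 4 libraries, with 0 of 4 tested genes called by edgeR. Itgam, one of the 4, was at 12 and 16.8 CPM against 6.7 and 9.72 CPM (0.81, SE 0.15, adjusted p = 0.0882, edgeR). The part of leukocytes in the class II difference was not tested.

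Some matrix metalloproteinases, enzymes that cut extracellular matrix, were higher in NGFR+ organoids. Mmp10, stromelysin 2, was at 163 and 143 CPM in NGFR- organoids and at 300 and 255 CPM in NGFR+ organoids, with no overlap (log2 difference -0.85, SE 0.11, adjusted p = 0.0157, edgeR). Mmp12, an elastase, was at 28.7 and 39 CPM against 62.5 and 73.3 CPM (-1.02, SE 0.12, adjusted p = 0.0132, edgeR). The family was then taken as a whole, after these values were seen. Of 18 genes tested 4 passed, beside 0.290% of all genes tested, and all 4 were higher in NGFR+ organoids. The other two were the collagenase Mmp13 (121 and 155 against 208 and 240 CPM; adjusted p = 0.0466, edgeR) and the gelatinase Mmp9 (57.8 and 55.4 against 88.8 and 112 CPM; adjusted p = 0.0476, edgeR).

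Mmp3, stromelysin 1, was at 793 and 803 against 1147 and 990 CPM and did not pass (-0.42, SE 0.13). Mmp2 and Mmp14 had log2 differences of 0.07 (SE 0.11) and 0.06 (SE 0.11). The part of support cells in the metalloproteinase levels was not tested. Over the 18 genes 11 differences were negative and 7 positive, with a median of -0.14. Mmp13, Mmp12 and Mmp10 lie in one cluster on chromosome 9, with 61.05 kb between the first pair and 132.9 kb between the second. Mmp12 overlaps Mmp1b on the opposite strand, which was at or below 0.289 CPM.

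Several metalloproteinase promoters are known for a site of the Fos and Jun factor AP-1 close to the start of the gene, so the stretch before the start is shown for the called genes of the cluster. Sequences are those of RefSeq for GRCm38.p6, 100 bases up to the base before the start, plus strand, with each match to the AP-1 letters TGANTCA (read the same on both strands) in capitals. They lie at chr9:7502242-7502341 for Mmp10, chr9:7347274-7347373 for the second of the Mmp12 starts and chr9:7272414-7272513 for Mmp13.
Mmp10: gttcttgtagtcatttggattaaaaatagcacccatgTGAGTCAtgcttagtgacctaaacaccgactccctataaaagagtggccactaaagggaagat
Mmp12: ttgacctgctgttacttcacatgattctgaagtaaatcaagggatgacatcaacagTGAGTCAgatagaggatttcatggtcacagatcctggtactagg
Mmp13: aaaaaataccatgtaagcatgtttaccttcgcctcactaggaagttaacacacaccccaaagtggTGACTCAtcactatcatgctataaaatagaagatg

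Each of these windows held 1 match, which begins 63, 44 and 35 bases before the start, in this order. The window of the first Mmp12 start held none. Over the tested metalloproteinase genes, 7 of 16 windows had a match within these 100 bases, beside 2.73% of all 32851 windows of the table and 2.07% of those of the genes tested. Over the called genes of the whole comparison, 29 of 50 had a window, and 7 of their 35 windows (20%) had a match, 5 of 15 for genes higher in NGFR+ organoids and 2 of 20 for genes higher in NGFR- organoids. Of those 5, 3 belong to the metalloproteinases for which the motif was looked up, and 2 of 11 windows matched without them. A match of letters is a description and not evidence of binding. No transcript of an AP-1 factor examined here was called, and the part of AP-1 in these differences was not tested. Fos was at 257 and 220 against 223 and 230 CPM and Junb at 334 and 340 against 368 and 373 CPM. Jun was at 696 CPM in the NGFR- Ad-GFP culture and at 318 to 384 CPM in the other three (log2 difference 0.66, SE 0.19, adjusted p = 0.346, edgeR).

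Hoxc4, a homeobox gene of positional identity, showed the largest difference in favour of NGFR+ organoids among the named genes. It was at 1.1 and 0.728 CPM in NGFR- organoids and at 6.74 and 7.33 CPM in NGFR+ organoids, a 7.79-fold difference with no overlap (log2 -2.96, SE 0.29, adjusted p = 0.00385, edgeR). In the 6 distal lung organoid libraries Hoxc4 was at 0.0241 to 0.158 CPM, so for this gene both tracheal populations lay above the distal ones. The Hox family was looked up after this value was seen. Of 18 Hox genes tested 16 had a negative difference, 1 of them called, with a median of -0.52 against -0.01 over all genes.

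The neighbour Hoxc5 was at 0.355 and 0.175 CPM against 1.54 and 1.46 CPM (log2 difference -2.54, SE 0.48, adjusted p = 0.0891, edgeR). Hoxb6 was at 0.497 and 0.175 CPM against 1.72 and 1.4 CPM (-2.31, SE 0.48, adjusted p = 0.124, edgeR). Neither passed. The populations did not overlap for either gene, as in 37.4% of all genes tested. Hoxb6 did not share the order of Hoxc4 against distal organoids. On the scale of all 10 organoid libraries it was at 3.7 and 3.18 CPM in AT2 and 2.78 CPM in alveolar BASC organoids. It was at 0.392 to 0.616 CPM in the mixed and bronchiolar BASC organoids and at 0.17 to 1.66 CPM in the tracheal ones. Hox genes at higher levels, such as Hoxb2 (29.9 and 33 against 33.8 and 36.5 CPM) and Hoxb4 (20 and 20.4 against 20.9 and 24.8 CPM), differed by -0.16 (SE 0.11) and -0.17 (SE 0.13). Hoxa3, at a like level, was at 21.3 and 19.3 against 28.7 and 30.4 CPM and did not pass (log2 difference -0.54, SE 0.13, adjusted p = 0.184, edgeR), with Hoxa2 at -0.57 (SE 0.17) and Hoxa5 at -0.48 (SE 0.16). Foregut genes of the esophagus and thyroid list, another way to look at position, had 0 of 4 genes called by edgeR and a median of -0.56. DESeq2 called 1 of the 4, and the summed level was 126 and 157 CPM in NGFR- organoids against 196 and 210 CPM in NGFR+ organoids. Pax9, a factor of the pharynx and esophagus, was at 94.4 and 122 against 145 and 162 CPM (log2 difference -0.51, SE 0.11, adjusted p = 0.157, edgeR). Pax8 was at or below 0.366 CPM in every culture.

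The remaining named genes higher in NGFR+ organoids had varied roles. Tnfrsf11b, osteoprotegerin, a decoy receptor for the osteoclast factor RANKL, was at 26.1 and 26.2 CPM in NGFR- organoids and 66.8 and 69.2 CPM in NGFR+ organoids. The cultures of each population were almost equal, and the difference was 2.6-fold (log2 -1.38, SE 0.12, adjusted p = 0.00179, edgeR). Trim15, a ubiquitin ligase, was at 15.2 and 22.8 against 35.5 and 48.3 CPM (-1.15, SE 0.12, adjusted p = 0.00559, edgeR). Krt20, a keratin of differentiated gut and bladder epithelium, was at 26.8 and 45 against 67.7 and 73.5 CPM (-1.02, SE 0.16, adjusted p = 0.046, edgeR).

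Prdm1, the repressor BLIMP1, was at 18.3 and 25.8 against 38.6 and 44.8 CPM (-0.93, SE 0.13), and the chemokine Ccl5 at 14.4 and 19 against 31 and 32.3 CPM (-0.93, SE 0.13). The phosphatase Ptpn22 (15.1 and 20.7 against 30.3 and 33.2 CPM) and Baiap2l1, which bends membranes with actin (83.8 and 90.4 against 155 and 153 CPM), were called too. In all of these each NGFR+ culture lay above each NGFR- culture, which the rule that named them required. Of the inflammatory genes, Il1a was at 33.4 and 50.6 against 74.1 and 75.2 CPM and did not pass (-0.86, SE 0.15, adjusted p = 0.0714, edgeR), and the epithelial defence list had 0 of 17 genes called. The collagen receptor subunit Itga2 was at 112 and 142 against 178 and 219 CPM and also missed the threshold (-0.65, SE 0.11, adjusted p = 0.0552, edgeR). The pseudogene Rpl10-ps1, at 38.1 and 18.4 against 79.8 and 47 CPM, passed as well. It shares sequence with Rpl10, from which it derives, so its counts are uncertain. Its call was lost without the NGFR- Ad-Cre or the NGFR+ Ad-GFP culture.

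The calls fell in few of the lists. Of 27 lists of genes for cell types and pathways, 21 had 0 genes called by edgeR. Over all lists 16 of 383 genes tested were called, beside 0.290% of all genes tested. At that share a list of such length would mostly hold 0 calls, so 0 called does not mark a list as unchanged. In those 21 lists, 48 of 297 genes had an unadjusted p below 0.05 in edgeR, beside a smaller share over all genes, 1097 of 17234. The lists were written with earlier results of these data known, so no contrast of a list with all genes is independent of these data. DESeq2 called 6 of the 297, beside 101 over all genes, and limma-voom 0, beside 43. Of the 6, 2 were airway transcription factors, a list with 10 genes at an unadjusted p below 0.05, and the multiciliated, interferon, S phase and mitosis lists had 0 in DESeq2. Multiciliated cell genes gave 0 of 32 called by edgeR, a median of -0.00 and a 95% interval within 2-fold for all 32. Their median was -0.17 in the Ad-GFP pair and 0.14 in the Ad-Cre pair. Foxj1, the master regulator of motile cilia, was at 270 and 303 against 308 and 265 CPM, overlapping between populations. Airway transcription factors gave 0 of 25 called by edgeR, among them Nkx2-1 (103 and 107 against 108 and 112 CPM), which specifies lung, and Sox2 (163 and 183 against 219 and 203 CPM; adjusted p = 0.71, edgeR), which specifies the conducting airway. Notch pathway genes, which balance secretory and ciliated fates, gave 0 of 17 called by edgeR with a median of 0.07.

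The EGF receptor family and its ligands had 0 of 13 genes called by edgeR, with mouse Egfr at 138 and 133 against 149 and 148 CPM, and laminins and integrins 0 of 20. Interferon-stimulated genes had 0 of 23 called by edgeR, and their 95% intervals lay within 2-fold for all 23. Genes of S phase and of mitosis had 0 of 20 called in each list by edgeR. Mitotic genes summed to 568 and 724 CPM in NGFR- organoids and 741 and 663 CPM in NGFR+ organoids, so the NGFR- Ad-GFP culture was the lowest. The median over the mitotic list was -0.39 in the Ad-GFP pair and 0.13 in the Ad-Cre pair.

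Of the support cell markers, fibroblast genes summed to 3816 to 4468 CPM over the 4 libraries with 0 of 15 called by edgeR, and Col1a1, the collagen gene of the transgene's locus, was at 1179 and 960 against 1033 and 1060 CPM. Endothelial genes summed to 10.5 to 12.6 CPM, with Pecam1 at or below 0.477 CPM, and the labels describe the support cells as mesenchymal and endothelial.

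**Figure D3:**
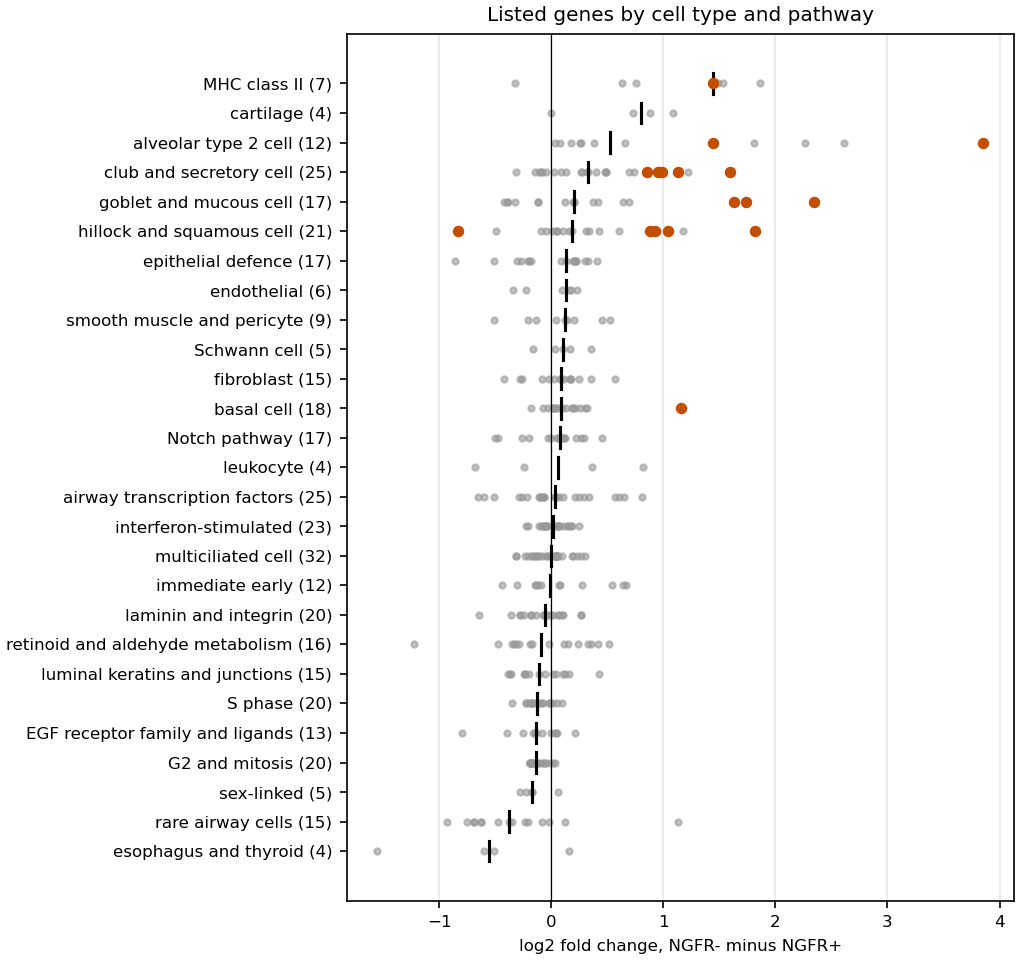
Log2 fold change (NGFR- minus NGFR+) of each tested gene in the 27 lists, with the number tested in parentheses; orange points passed the test, grey points did not, and black bars mark the list's median. The lists with called genes are the secretory, mucous, squamous, alveolar type 2, MHC class II and basal lists. Multiciliated, interferon and cell cycle genes lie close to 0 in the fit over both viruses.

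The distance between whole libraries was small. Over the 17234 genes tested, the NGFR- and NGFR+ cultures given the same virus differed by a median of 0.1718 (Ad-Cre) and 0.1749 (Ad-GFP) on the log2 CPM scale, and 4.259% to 5.17% of genes lay over 2-fold apart. The Ad-GFP and Ad-Cre cultures of one population differed by a median of 0.1777 for NGFR- and 0.1293 for NGFR+, with 4.891% and 2.507% of genes over 2-fold apart. By the median, the populations were thus no farther from each other than the cultures of the NGFR- population were among themselves. Those NGFR- cultures differ in virus and are the shallower libraries, so their distance is not a measure of noise alone. Other measures gave no single order. The Ad-Cre pair had more genes over 2-fold apart than the NGFR- pair (5.17% against 4.891%), but the Ad-GFP pair had fewer (4.259%). Pearson's r over genes was 0.985 in the NGFR- pair, 0.9913 in the NGFR+ pair and 0.9861 to 0.988 between populations. The chi-square per degree of freedom was 23.37 to 30.98 between populations and 17.02 and 21.55 within them, but it also rises with library depth, which differed between pairs. The NGFR- Ad-Cre and NGFR+ Ad-GFP cultures, which share neither sort nor virus, were the second closest of the 6 pairs at 0.1309.

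The distal organoids of the series give a scale for these distances. Tracheal and AT2 organoids given the same virus differed by a median of 0.611 to 0.6502, with 34.54% to 36.35% of genes over 2-fold apart. Mixed BASC organoids lay nearer, at 0.1922 to 0.2529, and the bronchiolar BASC culture at 0.3506 and 0.3844. Krt5 was also present in the mixed BASC organoids, at 1654 and 1003 CPM, and near 0 in AT2 organoids, at 1.66 and 6.5 CPM. These are descriptions over genes, which are not replicates.

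**Figure D4:**
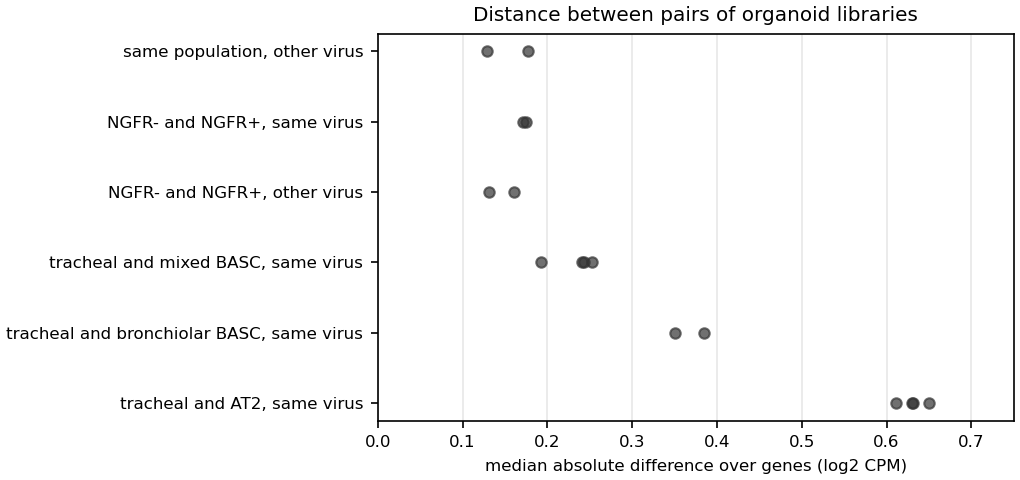
Median absolute log2 CPM difference over 17234 genes for pairs of libraries (each point 1 pair), grouped by what the pair shares. The 4 pairs of NGFR- with NGFR+ cultures lie between 0.1309 and 0.1749. The 2 pairs from one population, which differ in virus, lie at 0.1293 and 0.1777. The 4 pairs of tracheal with AT2 organoids given the same virus lie between 0.611 and 0.6502.

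The Ad-GFP pair and the Ad-Cre pair share no library, although no source gives separate sorts behind them. Of 12036 genes with a mean log2 CPM of at least 2, 98 were over 2-fold apart in the Ad-GFP pair, and 78 of them differed in the same direction in the Ad-Cre pair, 22 of them again by over 2-fold. Of 107 genes over 2-fold apart in the Ad-Cre pair, 76 had the same direction in the Ad-GFP pair. Over all 12036 genes the differences of the pairs correlated with Pearson's r = 0.19, a description across genes that are not independent. The called genes had one direction in both pairs, which the fit on these same libraries favours. The Ad-Cre minus Ad-GFP differences of NGFR- and of NGFR+ organoids correlated with r = -0.189 over the same genes. Of 62 genes over 2-fold apart between the NGFR- cultures, 24 had the same direction between the NGFR+ cultures.

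**Figure D5:**
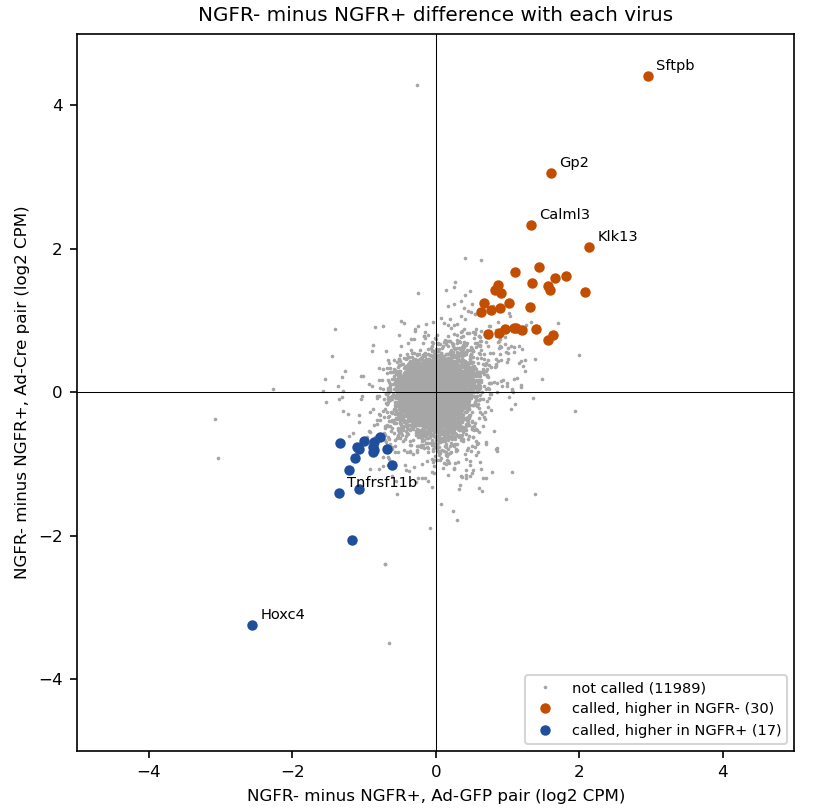
Log2 CPM difference, NGFR- minus NGFR+, in the Ad-GFP pair (horizontal) and in the Ad-Cre pair (vertical) for 12036 genes with a mean log2 CPM of at least 2 (3 lie outside the axes); orange and blue points passed the test. The 30 called genes higher in NGFR- organoids lie to the upper right of 0 and the 17 higher in NGFR+ organoids to the lower left, as the fit that called them favours.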

How the data were processed

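Groups were taken from the sort and virus given in the sample labels. Libraries were made from total RNA (TruSeq). The authors trimmed reads with Trimmomatic 0.39, aligned them with STAR 2.6.1d to GRCm38 and deposited, per gene, expected counts and TPM from RSEM 1.3.2, not normalized between samples. The TPM deposited by the authors served for levels between genes. In R 4.3.3, the expected counts, rounded to whole numbers, went into edgeR 4.0.16. Low genes were dropped by filterByExpr, libraries were scaled by TMM, and the quasi-likelihood test had the terms virus and population (1 residual degree of freedom), with Benjamini-Hochberg adjustment over all 17234 genes and calls at 0.05. The code was tested on simulated data, where the share of false calls was above the nominal level, so adjusted p-values near the threshold are somewhat too small. limma 3.58.1 and DESeq2 1.42.0 were alternatives. Library distances used log2 CPM with a prior count of 2. Of 46603 gene IDs, 46005 matched a symbol, and positions came from GENCODE vM21.

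Genes were named if on a short list of identity genes, if among the top 3 called per list and direction (or the largest difference where none was called), or if among the 12 largest called differences per direction (mean log2 CPM at least 2, no overlap, no predicted symbol). Genes outside this rule (Klk8, Klk9, Klk11, Klk14, 2310002F09Rik, Hoxc5, Hoxa2, Hoxa3, Hoxa5, Hoxb2, Hoxb4, Hoxb6, Mmp1b, Mmp2, Mmp3, Mmp9, Mmp13, Mmp14, Sftpc, Sftpa1, Lamp3, Lyz2, H2-Aa, Spdef, Muc1, Trpm5, Gnat3, Pax9, Cyp2f2, Bpifa1, Hp, Krt6a, Fos, Junb, Egfr, Col1a1, Reg3g, Mki67) were chosen after their values were seen. The comparison and gene lists were chosen with earlier results of these data known. Human EGFR transcripts were not analysed here.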

Additional observations from a re-analysis of the deposited data

Results flagged for a closer look

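Rgs5, a pericyte gene and the member of its list with the largest difference, went opposite ways with the 2 viruses. The log2 difference, NGFR- minus NGFR+, was -1.04 in the Ad-GFP pair and 1.14 in the Ad-Cre pair, with 1 library on each side of each pair, and the difference between the pairs was not tested. The counts behind it were 1 and 21 in the NGFR- cultures and 6 and 13 in the NGFR+ cultures, so each pair rests on few reads.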

How the results depend on the processing

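Counts of called genes ranged from 43 to 376 when 1 culture was left out with population as the single term (13 to 172 higher in NGFR+ and 28 to 204 higher in NGFR- organoids). The highest counts came without either NGFR- culture: 281 without Ad-GFP and 376 without Ad-Cre. DESeq2 called 101 (58 higher in NGFR-, 43 in NGFR+), no filter on low counts 371 (203 and 168), thinning to the shallowest library, an alternative chosen after seeing the data, 280 (156 and 124), and the fit over 10 libraries 0 (0 and 0). Of the 50 calls, 46 were shared with DESeq2, 41 with limma-voom, 35 with the fit without the virus block, 48 with the stricter filter and 26 to 50 with the fits leaving out a culture, and no called gene changed direction. Differences near 0 turned sign. Leaving out a culture gave log2 differences from -0.039 to 0.11 for Trp63, -0.0994 to 0.115 for Foxj1, -0.177 to 0.302 for Xist, -0.406 to 0.0198 for Ccna2, -2.32 to 1.69 for Rgs5 and -0.0751 to 0.613 for Cyp2f2. They ran from -0.384 to 0.0597 for Mki67, -0.542 to 1.06 for Lyz2, -0.0296 to 0.182 for Fos, -0.152 to 0.338 for Reg3g and -0.111 to 0.172 for Col1a1. Foxj1 stood at -0.00127 with the stricter filter and -0.0073 after thinning, and Rgs5 at -0.0106 with DESeq2.

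The share of genes over 2-fold apart fell from 4.71% to 1.15% between populations and from 3.70% to 0.76% within them with TPM (pseudocount 1), and to 2.59% and 1.61% with at least 10 counts in every library. The median between populations was 0.173, and was 0.147 with TPM, 0.159 with the stricter filter and 0.177 after thinning. The causes were not tested. With 1 residual degree of freedom, the spread is mostly that shared over genes: edgeR's prior degrees of freedom ran from 2.758 over 10 libraries to 8.216 as reported and 46.03 after thinning, and were infinite without a filter on low counts. Of 27 list medians, 11 changed sign under at least 1 alternative, mostly when a culture was left out, among them the goblet list (-0.22 without NGFR- Ad-Cre). The limit of 3 counts in a library lay at 0.0575 to 0.108 CPM.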
